A study of Homo sapiens with 3 samples.

Results

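The antioxidant genes described here were NQO1, GCLM, TXNRD1, SRXN1, HMOX1, GPX1, GPX2, GPX4, PRDX1 and SLC7A11, 10 genes chosen by symbol from those that the transcription factor NRF2 is known to act on or that work beside them. Of these 10, 9 had a row among the 33538 genes of the matrices, and GPX1 was not analysed here. Single-cell RNA was counted by 10x Genomics 3′ sequencing, in which every captured molecule carries a unique molecular identifier (UMI), in co-cultures of the human colorectal cancer lines Caco-2 and HT29. The culture conditions were the same for all 3 libraries. The lines were seeded at a ratio of 9 to 1 on Transwell inserts, kept in DMEM with fetal bovine serum and harvested on day 23. The control group held 2 untreated libraries. The LPS group held 1 library treated with 1 ng/ml of Escherichia coli lipopolysaccharide from day 22 for 24 h. Both lines are tumor lines, so the groups model no normal epithelium. As a check of the cell type, the 6 immune, endothelial and fibroblast markers summed to between 13.0 and 16.5 counts per 1e6 UMIs (CPM). The leukocyte gene PTPRC had 0 to 3 UMIs in a library. The immune gene CD3E had more, with 80, 50 and 68 UMIs in control 1, control 2 and the LPS library. The endothelial gene PECAM1 had 54, 46 and 34 UMIs in the same order.

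NRF2, encoded by NFE2L2, is held low by the adaptor KEAP1 and the ubiquitin ligase subunit CUL3. When oxidants or electrophiles modify KEAP1, NRF2 accumulates, pairs with small MAF proteins and binds antioxidant response elements near its target genes. The targets make and recycle glutathione and thioredoxin, reduce quinones and break down heme. In the intestine these enzymes meet oxidants from the diet, the microbiota and the tissue itself, and GPX2 is the glutathione peroxidase best known from the gut epithelium.

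After cell filters, 4633 cells of control 1, 4989 of control 2 and 4850 of the LPS library were kept, with medians of 5455, 4101 and 3572.5 UMIs per cell. The LPS library was thus the shallowest. Each cell was assigned to a line from 14 Caco-2 and 13 HT29 marker genes, none of them an antioxidant gene of this work. The median share of HT29 markers among the marker UMIs was 95.8% to 96.6% in HT29-line cells and 0% to 1.18% in Caco-2-line cells. HT29-line cells numbered 571, 804 and 677, and Caco-2-line cells 3918, 3841 and 3761, in control 1, control 2 and the LPS library. Between 1 pair of libraries 11 barcodes were shared, and 9 between each of the others, and no shared barcode had the same counts. All levels are UMIs summed over the cells of a group and given per 1e6 UMIs of that group, so fewer cells with a gene and less RNA per cell cannot be told apart from the level alone.

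The first question was whether the 2 lines, grown side by side in the same wells, differed in these genes. HT29-line cells held far more RNA of GPX2, SLC7A11 and GCLM, and less of GPX4, than Caco-2-line cells of the same libraries. Of the 9 genes measured, 8 had enough UMIs for the test, 7 were higher in HT29-line cells and 1, GPX4, was lower, by edgeR's quasi-likelihood test with the library as a block and an adjusted p below 0.05. Of all 14431 genes tested, 33.6% were higher and 38.6% lower, since the lines differ in most of their transcriptome. The median log2 fold change of the 8 genes was 1.18, against -0.09 for all genes tested. The share of genes called was therefore little guide by itself, and the sizes carry more.

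GPX2, which reduces hydrogen peroxide and small lipid peroxides with glutathione, had the largest difference among the 8. Its gene (ENSG00000176153) lies on chromosome 14 at 64939152 to 64942746 of GRCh38, on the minus strand. In HT29-line cells GPX2 was at 447 CPM in control 1, 305 in control 2 and 356 in the LPS library. In Caco-2-line cells it was at 42.3, 29.6 and 22.5 CPM in the same order. Every HT29-line value was above every Caco-2-line value, and the fitted log2 fold change was 3.47 ± 0.11 (SE, adjusted p = 1.2e-18, edgeR), an 11.1-fold difference. A GPX2 UMI was seen in 64.8% of HT29-line cells of control 1 (95% exact binomial interval 60.7 to 68.7), 46.5% (43.03 to 50.03) of control 2 and 52.6% (48.7 to 56.4) of the LPS library. The shares in Caco-2-line cells were 14.2% (13.1 to 15.3), 10.2% (9.29 to 11.2) and 6.97% (6.17 to 7.83). When each cell was thinned to the same number of UMIs, the shares became 45.2%, 32.7% and 44.6% in HT29-line cells and 6.38%, 5.42% and 3.67% in Caco-2-line cells. These intervals cover counting error only.

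The Caco-2-line level of GPX2 was 9.46%, 9.70% and 6.33% of the HT29-line level in the 3 libraries. Among genes at 100 CPM or more in HT29-line cells, other than markers, the lowest 1% had Caco-2-line levels of at most 2.49%, 3.41% and 2.90% of the HT29-line level. GPX2 was above these percentages in every library. The lowest 5% of the same genes were at most 8.46%, 10.7% and 10.9%, and GPX2 was below these in control 2 and the LPS library. Whether RNA set free from HT29 cells, or cells of mixed lines, added to the Caco-2-line level of GPX2 was not tested.

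SLC7A11 and GCLM serve the making of glutathione. SLC7A11 is the light chain of the exchanger that brings cystine into the cell, and GCLM is the modifier subunit of the enzyme for the rate-limiting step of glutathione synthesis. SLC7A11 (ENSG00000151012, chromosome 4, 138164097 to 138242349, minus strand) was at 118, 107 and 141 CPM in HT29-line cells of control 1, control 2 and the LPS library. It was at 15.4, 20.8 and 22.0 CPM in Caco-2-line cells. The log2 fold change was 2.57 ± 0.11 (SE, adjusted p = 3.1e-16), a 5.92-fold difference, with no overlap between the lines. GCLM (ENSG00000023909, chromosome 1, 93885199 to 93909456, minus strand) was at 38.8, 32.4 and 38.9 CPM in HT29-line cells and at 7.37, 7.70 and 7.49 CPM in Caco-2-line cells. The log2 fold change was 2.19 ± 0.14 (SE, adjusted p = 6.6e-13). The Caco-2-line values of GCLM lay within 1 CPM of each other, while those of HT29-line cells spread over several CPM.

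TXNRD1, the cytosolic selenoenzyme that reduces thioredoxin, was at 109, 132 and 127 CPM in HT29-line cells and at 38.0, 41.8 and 40.5 CPM in Caco-2-line cells. Its log2 fold change was 1.51 ± 0.09 (SE, adjusted p = 4.9e-13). The gene (ENSG00000198431) spans 104215779 to 104350307 of chromosome 12 on the plus strand, and the feature list also holds EID3, which overlaps it on that strand. HMOX1, the heme oxygenase that splits heme into biliverdin, iron and carbon monoxide, was low in both lines. HMOX1 (ENSG00000100292, chromosome 22, 35380361 to 35394214, plus strand) was at 18.0, 11.6 and 8.56 CPM in HT29-line cells and at 7.95, 6.49 and 5.34 CPM in Caco-2-line cells. The lowest HT29-line value was close to the highest Caco-2-line value, and the log2 fold change was 0.84 ± 0.18 (SE, adjusted p = 1.9e-04).

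**Figure D1:**
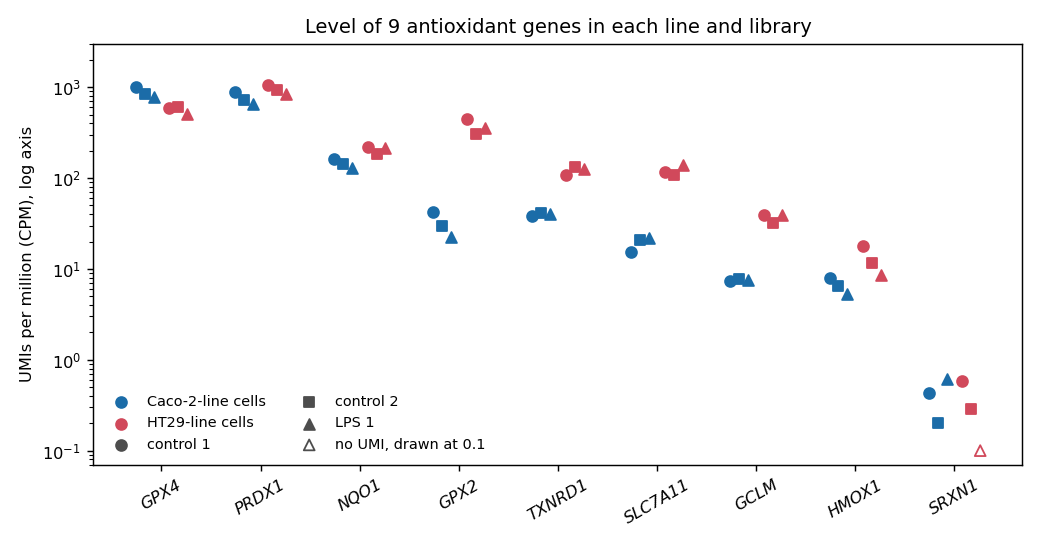
Level of the 9 measured genes in Caco-2-line and HT29-line cells of each library, in CPM on a log axis, with 1 point per line and library and no error bars. GPX2 in HT29-line cells sits between 305 and 447, all above the Caco-2-line values of 22.5 to 42.3, while for GPX4 the Caco-2-line values of 777 to 1001 are the higher ones.

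NQO1 and PRDX1 differed far less. NQO1, which reduces quinones by 2 electrons at once and is the textbook readout of NRF2, was at 219, 185 and 217 CPM in HT29-line cells against 162, 143 and 128 CPM in Caco-2-line cells. The values did not overlap, and the log2 fold change was 0.43 ± 0.09 (SE, adjusted p = 2.3e-04). NQO1 (ENSG00000181019) lies on chromosome 16 at 69706996 to 69726668, on the minus strand. PRDX1, an abundant peroxiredoxin that removes hydrogen peroxide with thioredoxin, was at 1068, 932 and 840.4 CPM in HT29-line cells and 897, 729.8 and 661 CPM in Caco-2-line cells. The ranges overlapped, but within each library HT29-line cells were higher, by 1.19-, 1.28- and 1.27-fold. The fitted log2 fold change was 0.22 ± 0.07 (SE, adjusted p = 0.00983), and without the library block it was 0.23 with an adjusted p of 0.17. Without control 2, the adjusted p of PRDX1 was 0.0602. PRDX1 (ENSG00000117450, chromosome 1, 45510914 to 45542732, minus strand) has 1 named pseudogene in GENCODE, and reads that match both equally are not counted.

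GPX4, the selenoenzyme that reduces lipid hydroperoxides within membranes and holds back ferroptosis, went the other way. It was at 587, 602 and 512 CPM in HT29-line cells and at 1001, 850.1 and 777 CPM in Caco-2-line cells of control 1, control 2 and the LPS library. Each HT29-line value was below each Caco-2-line value, and the log2 fold change was -0.72 ± 0.08 (SE, adjusted p = 2.0e-08), a 1.64-fold lower level. GPX4 (ENSG00000167468) lies on chromosome 19 at 1103982 to 1106791, on the plus strand. Among all genes tested, 36.4% had HT29-line values wholly above the Caco-2-line ones and 36.1% wholly below. Of the 8 genes, 6 were wholly above, GPX4 was wholly below and PRDX1 overlapped.

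SRXN1, the sulfiredoxin that repairs over-oxidized peroxiredoxins, was barely counted. There were 14, 5 and 12 SRXN1 UMIs among all kept cells of control 1, control 2 and the LPS library, or 0.467, 0.205 and 0.587 CPM. In HT29-line cells it had 2, 1 and 0 UMIs, and 0 of 677 cells allows a level of up to 1.07 CPM, taking 3 counts as the limit. SRXN1 had too few UMIs to be tested between the lines. The feature list holds another gene on the same strand, AL121758.1, whose GENCODE span overlaps that of SRXN1 (ENSG00000271303, chromosome 20, 646615 to 653200), and reads shared by a pair of genes are left out of such counts. AL121758.1 itself had 0 UMIs in each of the 3 libraries.

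The upstream sequences of 7 of the 10 genes were at hand from RefSeq (GRCh38.p14), and they were searched for the core of the antioxidant response element, TGACNNNGC, on both strands. The core occurred in the 250 bases before a start of GPX2, GCLM and TXNRD1, which is 3 of 7 genes. It was found before at least 1 start of 13.2% of all 27305 genes with a window, in 10.9% of all 35116 windows, and for 6 of the 27 other NRF2 targets with a window. The 250-base windows of NQO1, SRXN1, GPX1 and GPX4 held no core. Sequence farther upstream was not searched, so a core there would be missed. The upstream windows are printed 5′ to 3′ on the strand of the gene, ending at the base before the RefSeq start, with the core in capitals. RefSeq starts can differ from the GENCODE spans given above, and the GCLM and GPX4 windows reach into those spans. The GPX4 window, which holds no core, is shown for comparison.
GPX2, chr14:64942746-64942995, minus strand: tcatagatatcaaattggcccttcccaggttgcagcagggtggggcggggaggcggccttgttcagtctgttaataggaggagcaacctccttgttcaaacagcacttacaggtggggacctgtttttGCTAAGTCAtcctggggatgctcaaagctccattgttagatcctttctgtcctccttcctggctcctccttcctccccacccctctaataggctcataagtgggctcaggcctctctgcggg
GCLM, chr1:93909431-93909680, minus strand: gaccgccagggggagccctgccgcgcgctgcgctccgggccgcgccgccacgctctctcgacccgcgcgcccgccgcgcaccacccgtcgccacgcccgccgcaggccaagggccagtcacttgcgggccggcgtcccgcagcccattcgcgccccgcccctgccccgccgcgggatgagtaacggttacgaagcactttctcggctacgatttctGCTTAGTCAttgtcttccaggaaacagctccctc
TXNRD1, the upstream start, chr12:104215529-104215778, plus strand: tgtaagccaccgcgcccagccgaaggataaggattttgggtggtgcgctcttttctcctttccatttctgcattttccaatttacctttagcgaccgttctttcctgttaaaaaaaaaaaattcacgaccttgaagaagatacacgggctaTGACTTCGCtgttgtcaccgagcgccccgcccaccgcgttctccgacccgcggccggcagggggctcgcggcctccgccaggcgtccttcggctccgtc
TXNRD1, the downstream start, chr12:104286782-104287031, plus strand: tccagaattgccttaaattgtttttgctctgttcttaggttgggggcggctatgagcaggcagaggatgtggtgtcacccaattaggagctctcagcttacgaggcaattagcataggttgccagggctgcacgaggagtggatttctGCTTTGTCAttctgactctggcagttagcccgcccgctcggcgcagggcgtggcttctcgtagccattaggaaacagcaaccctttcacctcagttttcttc
GPX4, chr19:1103744-1103993, plus strand: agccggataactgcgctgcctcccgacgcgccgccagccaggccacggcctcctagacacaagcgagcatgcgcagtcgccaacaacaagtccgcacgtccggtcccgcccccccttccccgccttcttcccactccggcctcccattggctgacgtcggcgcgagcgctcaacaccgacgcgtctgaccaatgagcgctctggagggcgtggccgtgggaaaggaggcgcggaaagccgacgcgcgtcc
In GPX2 the core read TGACTTAGC on the opposite strand and lay 122 to 114 bases before the start. In GCLM it read TGACTAAGC, also on the opposite strand, 34 to 26 bases before the start. The TXNRD1 windows held TGACTTCGC on the gene's own strand and TGACAAAGC on the opposite one. A match describes these letters and does not show that NRF2 was bound there in these cells.

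The wider pathway was described with lists of genes that share no member with the 10. To be set beside the counts, 33.6% of all genes tested were higher in HT29-line cells and 38.6% lower. Among 8 regulators of NRF2, 5 were higher in HT29-line cells, 0 lower, and 3 did not pass the test, with a median log2 fold change of 0.92. The 3 were NFE2L2 itself (-0.11 ± 0.09 SE, adjusted p = 0.27), KEAP1 (0.21 ± 0.15, adjusted p = 0.21) and BACH1, the repressor that competes for the same elements (0.03 ± 0.11, adjusted p = 0.80). NFE2L2 was at 117, 106 and 112 CPM in Caco-2-line cells and 108, 113 and 109 CPM in HT29-line cells, which overlap. The RNA of NRF2 thus did not separate the lines by this test, and the protein was not measured. The regulators that rose most were the small MAF genes MAFF (1.36 ± 0.12) and MAFG (0.95 ± 0.10) and NFE2L1, a relative of NRF2 that is known for proteasome genes (1.04 ± 0.09). MAFK (0.95 ± 0.15) and CUL3 (0.89 ± 0.11) were also higher and were named after their values were seen.

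Among 36 other NRF2 targets, 35 were tested, of which 18 were higher in HT29-line cells, 11 lower and 6 not past the threshold. Of all genes tested, 33.6% were higher and 38.6% lower. The median log2 fold change was 0.28 for these targets and -0.09 for all genes. Among the targets that rose most were AKR1B10, a reductase of aldehydes (5.23 ± 0.29), and FTH1, the ferritin heavy chain that stores iron (2.40 ± 0.07). FTH1 was at 22472, 24332 and 17383 CPM in HT29-line cells and 4095, 4030 and 3230 CPM in Caco-2-line cells of control 1, control 2 and the LPS library. AKR1B10 was at 16.2, 14.8 and 27.1 CPM against 0.507, 0.558 and 0.246 CPM. The targets that fell most were GSTA1, an alpha-class glutathione transferase of enterocytes and liver (-5.46 ± 0.23), the canalicular efflux pump ABCC2 (-3.91 ± 0.23) and the aldose reductase AKR1B1 (-3.78 ± 0.44). ABCC2 was at 0.869, 2.60 and 5.71 CPM in HT29-line cells and 38.3, 38.7 and 46.0 CPM in Caco-2-line cells. AKR1B1 was at 0, 1.16 and 0.357 CPM against 5.26, 8.16 and 6.75 CPM, so its fitted value rests on very few UMIs. GCLC, the catalytic partner of GCLM, rose by 1.05 ± 0.12 on the log2 scale, less than GCLM itself. GSR, which regenerates reduced glutathione, was lower in HT29-line cells (-0.84 ± 0.14, adjusted p = 1.1e-05). GCLC and GSR were picked for naming after their values were seen. GSTA1, the AKR1 genes and FTH1 have near-identical relatives or pseudogenes, between which reads can be lost.

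The other antioxidant enzymes, a list chosen with earlier results of these data known, leaned to Caco-2. Of 18, 3 were higher in HT29-line cells, 11 lower and 4 not past the threshold, and the median log2 fold change was -0.50. For all genes tested the shares were 33.6% higher and 38.6% lower, with a median of -0.09. GPX3, a secreted glutathione peroxidase (-2.71 ± 0.13), SELENOP, the selenium carrier of plasma (-1.89 ± 0.09), and PRDX6, a peroxiredoxin that reduces phospholipid peroxides (-1.88 ± 0.08), fell most. SELENOP was at 95.0, 86.5 and 102 CPM in HT29-line cells against 340.1, 326 and 317 CPM in Caco-2-line cells. GPX8, a peroxidase of the endoplasmic reticulum (1.49 ± 0.19), the mitochondrial and peroxisomal PRDX5 (0.48 ± 0.08) and the mitochondrial glutaredoxin GLRX2 (0.38 ± 0.11) rose. The call of GLRX2 was lost without the library block (adjusted p = 0.0503) and in thinned cells (adjusted p = 0.0800).

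TXNRD1, GPX2 and GPX4 are selenoproteins, which need a dedicated machinery to insert selenocysteine. Among 7 genes of that machinery, 2 were higher in HT29-line cells, 3 lower and 2 not past the threshold, with a median of -0.60, against 33.6% higher and 38.6% lower of all genes tested. SECISBP2, which binds the selenocysteine insertion element (0.95 ± 0.12), and SEPSECS, which makes selenocysteine on its tRNA (0.75 ± 0.19), rose. PSTK (-1.15 ± 0.20) and the selenophosphate synthetases SEPHS1 (-1.10 ± 0.14) and SEPHS2 (-0.84 ± 0.10) fell.

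SLC7A11 is also a target of ATF4, the factor of the amino acid response. Of 12 genes of that response, 11 were higher in HT29-line cells and 1 lower, with a median log2 fold change of 1.20. The shares over all genes tested were 33.6% higher and 38.6% lower. Whether ATF4 had a part in the SLC7A11 difference was not tested. PSAT1, an enzyme of serine synthesis (2.58 ± 0.11), the stress sensor SESN2 (1.96 ± 0.14) and CHAC1, which breaks down glutathione (1.92 ± 0.14), rose most. PSAT1 was at 84.3, 82.4 and 113 CPM in HT29-line cells and 12.7, 14.9 and 15.9 CPM in Caco-2-line cells. PHGDH, which opens the serine pathway ahead of PSAT1, was the gene that fell (-1.48 ± 0.10). SLC3A2, the heavy chain that carries SLC7A11 to the membrane, rose by 0.28 ± 0.08 (SE, adjusted p = 0.00354) and was named after its value was seen.

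**Figure D2:**
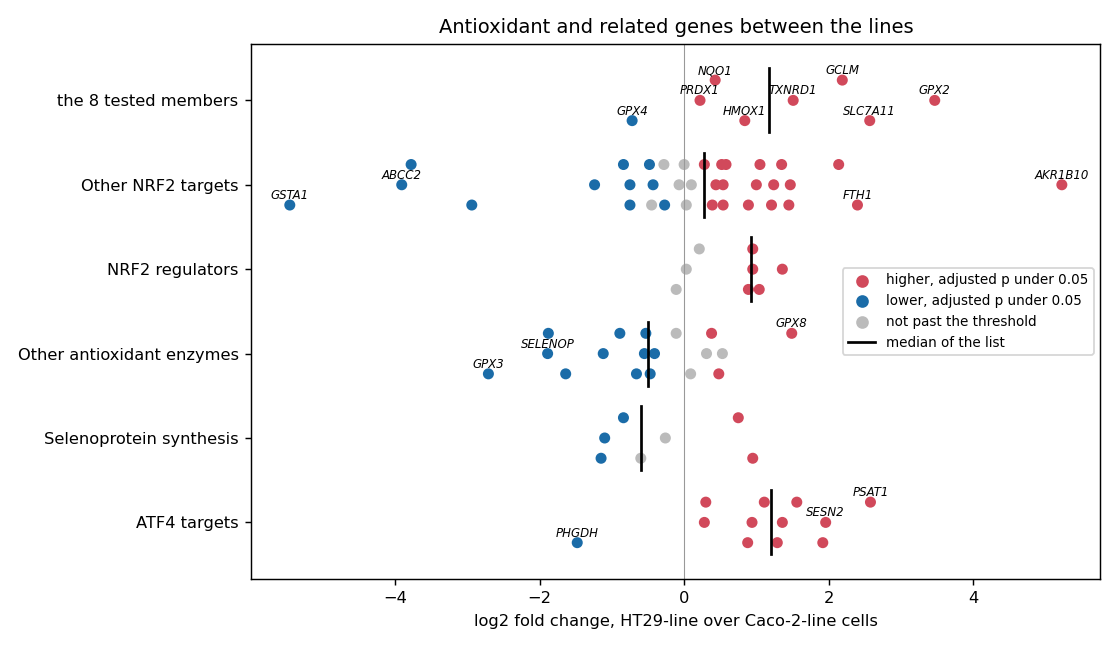
Log2 fold change of HT29-line over Caco-2-line cells for the 8 tested genes and 5 lists, 1 point per gene, red where higher and blue where lower past an adjusted p of 0.05, grey otherwise, with black bars at the list medians. The medians run from 1.20 for ATF4 targets and 1.18 for the 8 genes to -0.60 for selenoprotein synthesis.

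The next question was how the genes were spread over the cell groups within the co-culture. Clustering left the antioxidant genes out of its features and gave 13 clusters. HT29 cells fell almost wholly into 1 cluster of 2364 cells, of which 83.4% were HT29-line, and 8 clusters were of Caco-2 cells at 91.8% or more. Names follow marker genes where these were clear and leading genes elsewhere. More than 2-fold higher than in the other cells were 6 of 7 stem markers in the stem-like cluster, 8 of 8 in the enterocyte-like one, 8 of 8 in the cycling one and 6 of 6 in the enteroendocrine-like one. The levels across clusters are a description with no test, as mean CPM ± SD over the libraries with at least 20 cells of the cluster.

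GPX2 was at 369 ± 72.0 CPM (SD, n = 3) in the HT29 cluster, and every library there was above every library of the next cluster. The HT29 cluster also held 77 cells called Caco-2-line, with a pooled level of 284 CPM. Those cells had 207 of the 2037 GPX2 UMIs of all Caco-2-line cells. For SLC7A11, TXNRD1 and GPX4 they held 16.5, 49.4 and 972 CPM, against 119.7, 124 and 579 CPM in the HT29-line cells there. Their NQO1 was at 235 against 210.3 CPM. Next came a small cluster high in MUC2, FCGBP and SST, which mixed both lines (27.3% of its 209 cells carried markers of both), at 193 ± 102 CPM (n = 3). Within it, the 66 HT29-line cells had a pooled level of 258 CPM and the 64 Caco-2-line cells 201 CPM. GPX2 was also at 140.3 ± 33.0 CPM (n = 3) in a Caco-2 cluster of 271 cells high in SPRR1B and SLPI. There the 255 Caco-2-line cells alone held 133 CPM. Set against all other cells, its HT29 markers had a mean log2 fold of 0.27, against -2.78 to -2.45 in the other Caco-2 clusters. Of its cells 5.90% carried markers of both lines, and its median was 7107 UMIs per cell. Whether HT29 RNA or mixed cells added to its GPX2 was not tested. This cluster was above the cycling (42.3 ± 13.9) and stem-like (30.4 ± 13.7) Caco-2 cells in every library. Enterocyte-like cells, led by APOA4, had 8.19 ± 4.55 CPM (n = 3). A placental-gene-high cluster of 73 cells had 1 GPX2 UMI in each library, too few to place it in the order. From the SPRR1B-high cluster downward, 1 step in the order separated all libraries, that to the NEAT1-high cluster at 50.8 ± 30.6 CPM (n = 2), and the later neighbors overlapped. The Caco-2 level of GPX2 was therefore an average over cells that differed widely.

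GPX4 was highest in the Caco-2 cluster where GPX2 was low, the enterocyte-like cells, and high in the SPRR1B-high cluster as GPX2 was. It was at 1438 ± 180.2 CPM (SD, n = 3) in enterocyte-like cells, 1180 ± 139.9 in the SPRR1B-high cluster and 991 ± 97.4 in a GNRH2- and trefoil-high cluster, whose ranges overlapped from each to the next. Over the 24 sums of Caco-2 cluster and library, Pearson's r of log2(CPM + 1) was 0.07 for GPX2 and GPX4, given as a description. Stem-like cells had 599 ± 56.4 CPM and HT29 cells 624 ± 59.6, which also overlapped. GPX4 was lowest, apart from the sparse NEAT1-high cluster, in enteroendocrine-like cells at 367 ± 26.4 CPM (n = 3). The HT29 range also overlapped those of cycling (701 ± 77.9), ITGA5- and SLC26A2-high (694 ± 92.8) and ALB- and AFP-high (708 ± 146) Caco-2 cells (n = 3 each). It overlapped that of placental-gene-high cells (673 ± 42.1, n = 2) as well. The low level of GPX4 in HT29 cells was thus shared with stem-like cells and several other clusters.

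**Figure D3:**
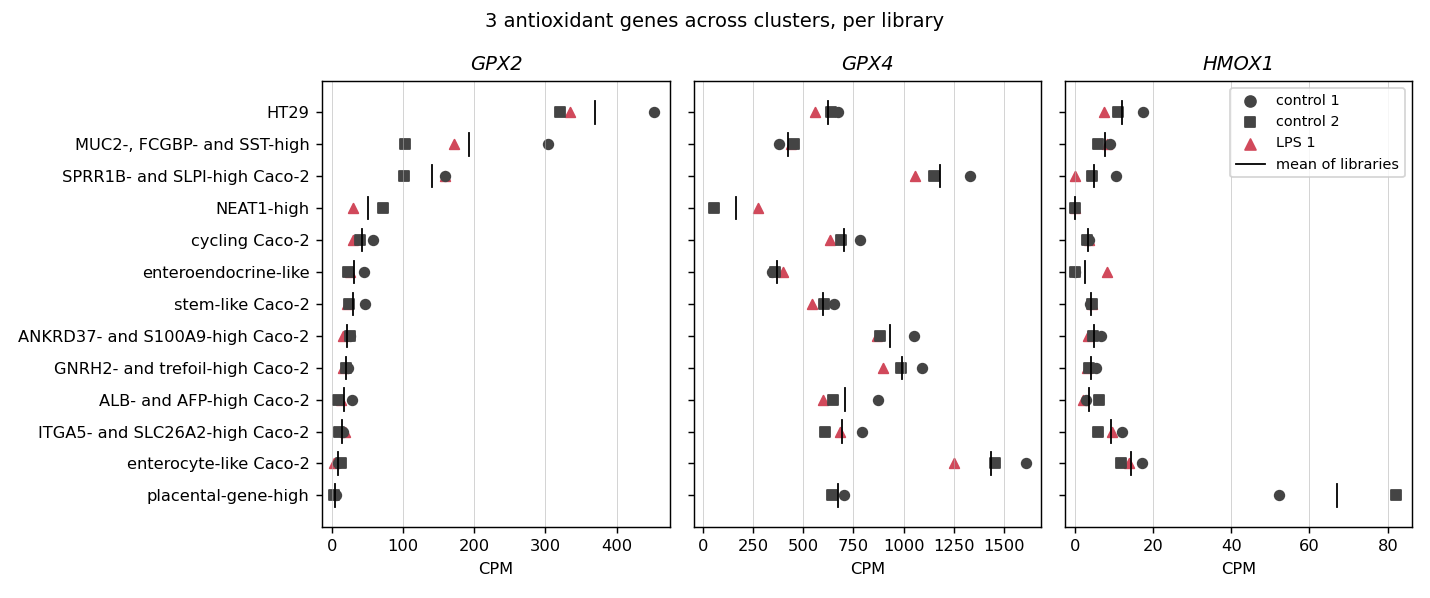
CPM of GPX2, GPX4 and HMOX1 in each cluster and library with at least 20 cells (circles control 1, squares control 2, triangles LPS), with a bar at the mean, and clusters in the order of GPX2. GPX2 peaks in the HT29 cluster at 369, GPX4 in enterocyte-like cells at 1438, and HMOX1 in the placental-gene-high cells at 67.2.

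SLC7A11, GCLM and TXNRD1 were lowest, or nearly so, in enterocyte-like cells. SLC7A11 was at 108 ± 14.8 CPM (SD, n = 3) in the HT29 cluster, 29.1 ± 3.79 in stem-like cells and 5.98 ± 1.91 in enterocyte-like cells. Only enteroendocrine-like cells were lower, at 2.76 ± 2.41 CPM from 2 UMIs in all, and their range overlapped that of enterocyte-like cells. The highest SLC7A11 was found in the NEAT1-high cluster, at 338 ± 136 CPM (n = 2). That cluster had 71 cells and a median of 2243 UMIs per cell, and 53.5% of its cells had too few marker UMIs for a line call. Its level rests on 49 SLC7A11 UMIs in control 2 and the LPS library. The 13 cells of control 1, too few to be included, had 16 SLC7A11 UMIs. GCLM was at 34.0 ± 3.14 CPM in HT29 cells, 10.5 ± 0.351 in cycling cells and 3.36 ± 0.553 in enterocyte-like cells, with overlaps between all neighbors. TXNRD1 was at 113 ± 10.1 CPM in HT29 cells, above all other clusters in every library. It was at 50.1 ± 4.76 in cycling, 49.9 ± 2.92 in stem-like and 24.8 ± 1.49 in enterocyte-like cells.

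NQO1 did not mark the line in this view. Its 5 highest clusters were HT29 at 207 ± 19.1 CPM, cycling Caco-2 at 195 ± 22.9, an ALB- and AFP-high Caco-2 cluster at 190.2 ± 33.9, the SPRR1B-high cluster at 183 ± 28.6 and stem-like cells at 172 ± 27.0 (SD, n = 3 each), with overlapping ranges. All libraries of these 5 were above those of the next, the GNRH2-high cluster at 131 ± 5.47 CPM. Enterocyte-like cells had 80.8 ± 11.6 CPM. Within each library HT29 cells were above stem-like cells, at 222 against 199 CPM in control 1, 186 against 172 in control 2 and 214 against 145 in the LPS library. This did not hold for all Caco-2 clusters. In control 2, cycling cells at 188 CPM and the ALB- and AFP-high cluster at 198 CPM were above HT29 cells. Both were below HT29 cells in control 1, at 220.0 and 219 CPM, and in the LPS library, at 176 and 153 CPM.

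HMOX1 followed neither pattern. It was at 67.2 ± 21.3 CPM (SD, n = 2) in the placental-gene-high cluster, from 10 UMIs in 21 cells of control 1 and 23 UMIs in 44 cells of control 2. In the 8 cells of this cluster in the LPS library there were 0 HMOX1 UMIs, which allows up to 79.7 CPM. A UMI was seen in 33.3% (95% exact interval 14.6 to 57.0) and 22.7% (11.5 to 37.8) of the cells of the controls. Enterocyte-like cells came next at 14.3 ± 2.80 CPM (n = 3). HT29 cells followed, between 7.58 CPM in the LPS library and 17.4 CPM in control 1, and the ranges of both clusters overlapped. Cycling and stem-like cells had 3.50 ± 0.245 and 4.31 ± 0.394 CPM. HMOX1 was thus higher in enterocyte-like than in stem-like or cycling cells in each library, the opposite of GPX2, SLC7A11 and GCLM.

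PRDX1 ran from 1002 ± 95.9 CPM in the SPRR1B-high cluster (SD, n = 3) to 224 ± 163 in the NEAT1-high cluster (n = 2), the latter from 41 UMIs. It was at 699 ± 112 CPM in stem-like, 763 ± 120.3 in enterocyte-like, 809 ± 134 in cycling and 976 ± 132 in HT29 cells (SD, n = 3 each). All neighbors in its order overlapped down to the ITGA5- and SLC26A2-high Caco-2 cluster, whose libraries had 463 CPM in control 2, 597 in control 1 and 402 with LPS.

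**Figure D4:**
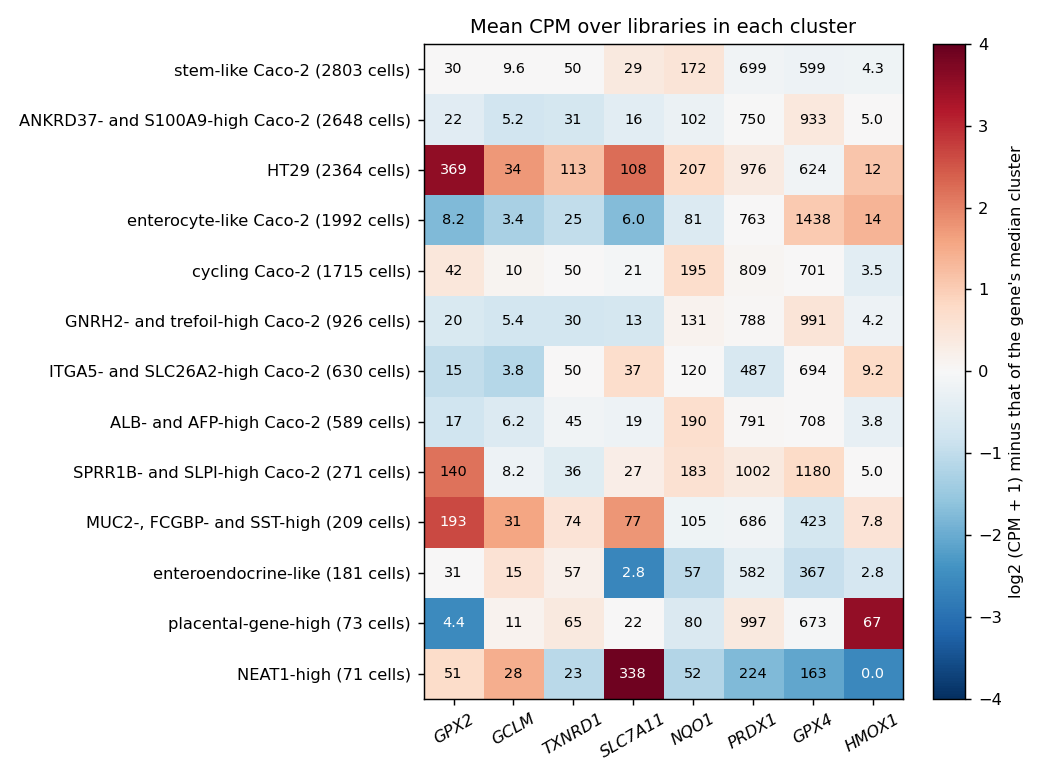
Mean CPM of 8 genes in 13 clusters (numbers), colored by log2 (CPM + 1) minus that of the gene's median cluster, with means over 3 libraries except for the placental-gene-high and NEAT1-high clusters (2 libraries). GPX2, GCLM, TXNRD1 and SLC7A11 are red in the HT29 row and blue in the enterocyte-like row, where GPX4 and HMOX1 are red.

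The genes were also set against each other over the 37 sums of cluster and library with at least 20 cells. These sums share libraries and depth, so r is a description without a test. Over all sums, Pearson's r of log2(CPM + 1) was 0.77 for GPX4 and PRDX1, 0.66 for GCLM and GPX2 and -0.63 for GCLM and GPX4. Over the 24 sums of the 8 Caco-2 clusters alone, r was 0.76 for TXNRD1 and SLC7A11, -0.80 for TXNRD1 and GPX4 and -0.73 for GPX4 and SLC7A11. Every pair among NQO1, GCLM, TXNRD1, GPX2 and SLC7A11, grouped after the values were seen, was positive there, from 0.15 to 0.76. Over all 37 sums NQO1 and GCLM had r = -0.10. The negative values over the Caco-2 clusters involved GPX4, HMOX1 or PRDX1. The 8 genes thus did not rise and fall as 1 group. In single cells thinned to the same depth, the highest Spearman rho of any of the 28 pairs within a line and library was between 0.05 and 0.15, and the lowest between -0.11 and -0.05. Such weak values in sparse counts are no finding.

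Among 5890 genes with a mean of at least 20 CPM over the 37 sums, those most like each gene were named by r. For GPX2 they were LYZ (r = 0.90, and 0.86 over the Caco-2 clusters) and OCIAD2 (0.90 and 0.71). For SLC7A11 they were SLC7A1, a carrier of cationic amino acids (0.91 and 0.82), and FASN, the fatty acid synthase (0.88 and 0.77). For GPX4 they were PRR13 (0.94 and 0.88) and S100A14 (0.93 and 0.84), and for PRDX1 FAM96B (0.95 and 0.93) and COX5B (0.95 and 0.91). NQO1 was most like ACAT2 (0.78 and 0.65) and CYC1 (0.78 and 0.84), GCLM like ACACA (0.83 and 0.59) and PLXND1 (0.83 and 0.50), TXNRD1 like APP (0.81 and 0.50) and DLG3 (0.79 and 0.62), and HMOX1 like PGM1 (0.78 and 0.31) and NEDD9 (0.76 and 0.56). LYZ was one of the HT29 markers. Values that fell once the Caco-2 clusters stood alone, as for HMOX1 and PGM1, rested on the contrast with the other clusters.

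The last question was whether LPS changed these genes. With 1 LPS library against 2 controls, the test assumes that the LPS library varies as the controls do. No antioxidant gene passed the threshold in all kept cells, in Caco-2-line cells, in HT29-line cells or in the interaction of line and LPS, where edgeR called 0.131%, 0.110%, 0% and 0.200% of all genes tested in either direction. DESeq2 also called 0 of them in each comparison. In all kept cells 2 of 9 had an unadjusted p below 0.05, against 5.04% of all genes tested, in Caco-2-line cells 4 of 9 against 7.30%, in HT29-line cells 0 of 8 against 2.72% and in the interaction 2 of 8 against 3.89%. In simulated data the test recovered 67.3% of 2-fold and 94.9% of 4-fold changes in Caco-2-line cells but 0% of either in HT29-line cells. Few genes changed in the simulation, and its LPS library varied as its controls did. These shares may thus not hold for the real data. The lack of calls in HT29-line cells says nothing about a change there.

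GPX2 came nearest. In Caco-2-line cells the LPS library, at 22.5 CPM, was below both controls at 42.3 and 29.6 CPM, with a log2 fold change of -0.77 ± 0.18 (SE, unadjusted p = 2.5e-04, adjusted p = 0.15, edgeR). The controls differed from each other by more than control 2 differed from the LPS library. GPX2 passed with no filter on low counts (-0.79, adjusted p = 0.00291) and with a single limit on the line score (-0.70, adjusted p = 0.00539). In HT29-line cells the LPS value of 356 CPM lay between the controls, and the fold change was -0.13 ± 0.26. The interaction was 0.63 ± 0.20 (SE, unadjusted p = 0.00180, adjusted p = 0.45, edgeR), which does not pass.

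HMOX1, NQO1, GPX4 and PRDX1 were lowest in the LPS library too. HMOX1 was at 9.08, 7.30 and 5.78 CPM in all kept cells of control 1, control 2 and the LPS library (-0.59 ± 0.23, adjusted p = 0.91, edgeR). NQO1 was at 168, 148 and 140.4 CPM (-0.25 ± 0.16), GPX4 at 945, 810.4 and 735 CPM (-0.34 ± 0.18), and PRDX1 at 919, 757 and 688 CPM (-0.37 ± 0.18). SLC7A11 ran the other way, at 28.3, 35.1 and 41.5 CPM (0.31 ± 0.16, adjusted p = 0.94, edgeR). GCLM at 11.4, 11.6 and 12.3 CPM and TXNRD1 at 47.1, 56.5 and 53.0 CPM differed from the controls by less than 1 SE. The LPS library was the lowest of the 3 for 5 of the 9 genes, against 23.3% of all genes tested, and the highest for 3, against 48.8%. The median UMIs per cell ran in the same order as the levels of HMOX1, NQO1, GPX4, PRDX1 and GPX2 in all kept cells and of GPX2 in Caco-2-line cells, and in the reverse order of SLC7A11, from 5455 to 4101 and 3572.5, and the median mitochondrial share ran from 3.62% to 4.05% and 4.42%; the part of either in these values was not tested. Control 1 was also the highest library in 10 of the 11 clusters with enough cells in all 3 for PRDX1 and NQO1, and the lowest in 9 of 11 for SLC7A11, so the controls differed between themselves in the same direction.

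**Figure D5:**
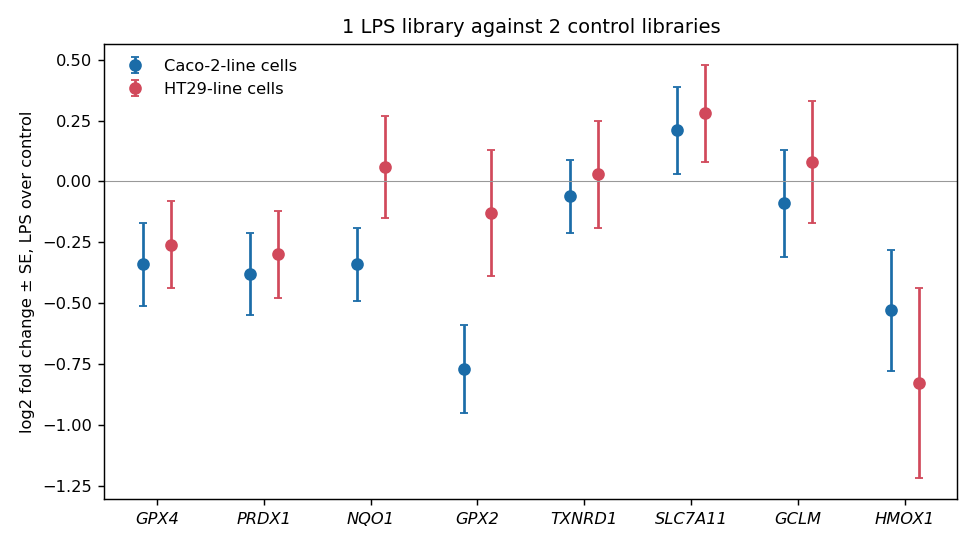
Log2 fold change of the LPS library over the 2 controls, with its SE from edgeR, for 8 genes in Caco-2-line and HT29-line cells. The lowest Caco-2-line value is that of GPX2 at -0.77 and none passes an adjusted p of 0.05.

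In the lists around them, edgeR called 0 genes of the 5 lists in all kept cells, where 0.131% of all genes tested were called. An unadjusted p below 0.05 in edgeR was found for 5.04% of all genes tested. The counts in the lists were 0 of 8 regulators, 3 of 36 other NRF2 targets and 4 of 18 other antioxidant enzymes. They were 0 of 7 for genes of selenoprotein synthesis and 1 of 12 for ATF4 targets. DESeq2 called 0 of them as well. The medians were -0.05, -0.11, -0.21, -0.09 and 0.00 on the log2 scale, against 0.01 for all genes tested.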

How the data were processed

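The authors aligned the 10x reads to GRCh38 with Cell Ranger (3.1.0 in the matrix headers) and deposited raw UMI counts per gene and barcode, with no normalization. The annotation version is not given in the sources used here. The 3 libraries held 24185467 to 33893707 UMIs. Cells were kept at the study's minimum numbers of UMIs and genes and at most 20% mitochondrial UMIs, those of control 2 being used for the LPS library, since none is stated for it. Scrublet in scanpy 1.11.5 marked 0 doublets, so the 6% of cells with the highest scores were removed. Lines were called per cell at a share of HT29 markers of at least 0.7 or at most 0.3 among at least 10 marker UMIs. Clusters came from SCTransform and anchor integration in Seurat 5.3.0 and Leiden clustering at a resolution of 0.5, without the antioxidant and listed genes as features. UMIs were summed per library and line and tested with edgeR 4.0.16 (TMM, filterByExpr, quasi-likelihood, Benjamini-Hochberg over all genes tested). The library was a block between the lines, since the lines came from the same wells, and the LPS test had 1 residual degree of freedom. DESeq2 1.42.0 was the other tool. The authors call the libraries samples, and nothing states separate cultures beyond separate Transwells, so p-values cover the spread between these libraries. Tested on simulated data, the line test recovered 75% of 2-fold changes, with 1.2% of calls false. The simulation changed few genes and let the library means differ only in depth. The real line test called most genes, so these shares may not carry over. The genes, lists and markers were chosen with earlier results of these data known. Genes named are the 10, in each list up to 3 per direction with the largest change past the threshold between lines or with LPS, and for each of the 10 the 2 genes with the highest r over clusters. A gene that this rule names is not reported here. Gene positions are from GENCODE v44 (GRCh38) by Ensembl identifier.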

Additional observations from a re-analysis of the deposited data

How the results depend on the processing

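Between the lines, 7 of the 8 tested antioxidant genes kept their direction and their call under all 13 alternatives, which covered normalization, filter, tool, doublets, cell minimums, depth, line limits, the block and each library left out. GPX2 ranged from 3.28 to 3.80 on the log2 scale, SLC7A11 from 2.31 to 2.72, GCLM from 2.11 to 2.30 and GPX4 from -0.79 to -0.51. PRDX1 kept its direction, from 0.15 to 0.35, but lost its call with no filter on low counts (adjusted p = 0.0973), without control 2 and with no replicate block. No replicate block left 9709 genes called in all against 10415, and the block, which pairs the lines by library, changed no other call of the 8. No paired analysis of LPS was possible, because there was 1 LPS library and no pairing with a control is stated. Counts of all genes called with LPS were small and depended on the setting. In all kept cells 21 were called, 47 with no filter, 6 by DESeq2, 11 with no doublets removed, 7 at the minimums of control 1 and 13 with every barcode. In Caco-2-line cells 17 were called, 4 with DESeq2 size factors, 52 with no filter, 4 by DESeq2, 0 at the minimums of control 1, 11 at the limits 0.1 and 0.9, 53 at a limit of 0.5 and 10 by the line of the cluster. 1 antioxidant gene, GPX2, was called lower there with no filter and at a limit of 0.5. In HT29-line cells 0 were called by edgeR (315 at an unadjusted p below 0.05), 3 with DESeq2 size factors, 3 by DESeq2, 45 at the minimums of control 1, 4 at the limits 0.1 and 0.9, 33 at a limit of 0.5 and 2 by the line of the cluster. For the interaction 30 were called, 2 by DESeq2, 18 with no doublets removed, 4 at the minimums of control 1, 10 at the limits 0.1 and 0.9 and 0 by the line of the cluster. The causes were not tested. Small values changed sign for GCLM in all kept cells (0.02, and -8.24e-04 with no filter or -0.01 with every barcode), TXNRD1 in HT29-line cells (-0.02 by the line of the cluster) and, in the interaction, HMOX1 (0.01 at the limits 0.1 and 0.9) and SLC7A11 (-0.01 by the line of the cluster). Of the 48 comparisons of cluster levels under other clusterings, 39 moved by less than 1 SD. Against 13 clusters, a resolution of 0.8 gave 16 and log normalization gave 9. The comparisons did not cover the SPRR1B- and SLPI-high cluster or the one high in MUC2, FCGBP and SST. Leaving out a control gives LPS fold changes with no test.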
